A study of Mus musculus with 16 samples.

Results

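The interaction of MEKi and anti-CD40 Ab was examined in B16-OVA melanomas, that is, whether the change in a transcript with the antibody was the same in MEKi-treated tumors as in tumors without the inhibitor. The B16-OVA line is a murine melanoma engineered to express ovalbumin, a model antigen. All 16 tumors of the series, 4 in each of 4 groups, entered this contrast, and 18193 genes and 45037 probe sets were measured in each tumor. The mice were of the strain C57BL/6-Ly5.1, 6 to 12 weeks old, and carried subcutaneous tumors that were taken on day 18. Control mice received the vehicle methylcellulose Tween and a control IgG. CD40 mice received vehicle and the agonist CD40 mIgG1, MEKi mice received GDC-0623 at 30 mg/kg daily by gavage with control IgG, and MEKi+CD40 mice received both agents. The antibodies were given on treatment days 3, 5 and 7 and again 1 day before analysis. Each tumor was a piece of whole tissue from its own mouse, so that a lower signal can stand for fewer cells of a type or for less RNA per cell, and these cannot be told apart. Differences below are in log2 units. The interaction is the MEKi+CD40 mean minus the MEKi mean, less the CD40 mean minus the control mean. A value of 0 means that the 2 treatments added up on the log2 scale, and the value that they would then give, CD40 plus MEKi minus control, is called the additive value.

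MEK is the kinase that switches on ERK, and ERK drives cyclin D1, MYC and the Ets factors through which growth signals start DNA replication, ribosome production and cell division. CD40 is a receptor of antigen-presenting cells. Its ligation stands in for T cell help and leads to cytokine production, priming of CD8 T cells and release of interferon gamma, which makes tumor cells and macrophages transcribe MHC genes, immunoproteasome subunits, guanylate-binding proteins and chemokines. B16 cells carry low MHC class I levels at rest and respond strongly to interferon.

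The melanocyte origin of the tumors was plain in all arrays. Tyrp1, a melanin-synthesis enzyme, lay between 14.19 and 14.44 in every tumor, with an interaction of −0.02 (95% interval −0.22 to 0.18). The highest signal of any probe set tested was 14.75, so Tyrp1 lay near the top of the range. Several tumors stood apart. Skeletal muscle transcripts, as the mean of 16 genes relative to the control mean, reached 7.16 in MEKi+CD40 tumor 1, 4.15 in MEKi+CD40 tumor 3 and 2.92 in CD40 tumor 3, against at most 0.82 in the other 13. MEKi+CD40 tumor 1 also had a wider gap between 3′ and 5′ probe sets than the other 15 tumors, 0.38 for Gapdh (−0.06 to 0.08 in the others) and 0.91 for Actb (0.21 to 0.44), and it received the lowest array weight, 0.222, where an average array has a weight of 1. Values without some or all of these tumors are therefore given for several of the gene lists. Single genes are mostly given for all 16 tumors, and the signs of 70 of them under other fits are described at the end. The median standard error (SE) of an interaction was 0.163.

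No probe set passed an adjusted p of 0.05 for the interaction in limma (0% of 45037), and the smallest adjusted p was 0.0971. At an unadjusted p under 0.05 there were 3072 probe sets above 0 and 3352 below 0, 14.3% in all. Counted once per gene, 1677 genes lay above 0 (9.22%) and 1520 below 0 (8.35%). These shares are the background for the gene groups below, in which "at p under 0.05" always refers to the unadjusted p of the interaction. Of the 1520 genes below 0, 1447 had their lowest group mean in the MEKi+CD40 tumors, and for 1374 neither treatment alone reached an unadjusted p of 0.05. Of the 1677 genes above 0, 1518 had their highest mean in the MEKi+CD40 tumors and 1206 had no single-treatment p under 0.05. The MEKi+CD40 mean is a term of the contrast, so the place of that mean is a description. All 4 MEKi+CD40 tumors lay below the other 12 for 804 genes (4.42%) and above them for 429 (2.36%).

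The call count depended on how single MEKi+CD40 tumors were treated. With array weights estimated by limma, 240 probe sets were above 0 and 515 below 0 at an adjusted p under 0.05. Without MEKi+CD40 tumor 2 the counts were 137 and 423, and without tumor 1, the tumor with the wide 3′ to 5′ gap, they were 12 and 14. Tumor 2 did not stand apart in quality, with an array weight of 1.053 and a muscle score of −0.06. Its mean over the DNA replication genes was the nearest to control in its group, at −0.89 against −0.92 to −2.12 in the others. The fit without tumor 2 thus kept the more shifted tumors of the group, among them the muscle-containing tumors 1 and 3. All 755, 560 and 26 probe sets had the same sign in the fit of all tumors. The sets called with weights and without tumor 2 shared 354 probe sets, 46.9% of the former and 63.2% of the latter. The fits that left out any of the other 14 tumors gave 0 calls.

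**Figure D1:**
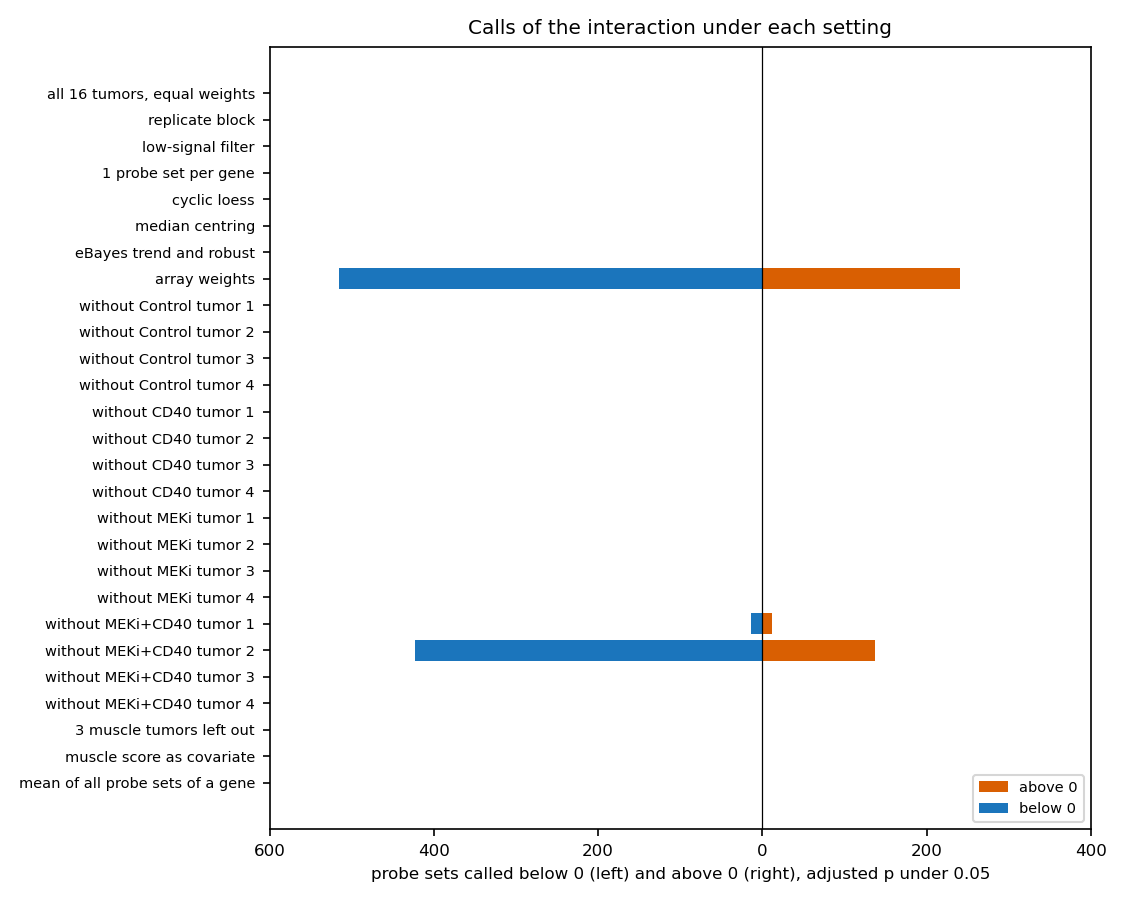
Number of probe sets with an interaction above 0 (orange, right) or below 0 (blue, left) at an adjusted p under 0.05, on a linear axis, for each way of fitting the 16 tumors. Calls appeared with array weights (240 and 515), without MEKi+CD40 tumor 1 (12 and 14) and without MEKi+CD40 tumor 2 (137 and 423), and 1 call below 0 with the muscle score as a covariate, too short a bar to be seen.

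The 2 arms of the contrast were also tested on their own. In the same fit, anti-CD40 Ab changed no probe set in the absence of MEKi and raised 1704 and lowered 2995 in its presence, or 970 genes higher (5.33%) and 1519 lower (8.35%). MEKi likewise changed none without the antibody, and with it 2484 were higher and 2825 lower, or 1313 genes higher (7.22%) and 1451 lower (7.98%). Without the 3 tumors with muscle transcripts the counts in the presence of the other agent were 144 and 403 for the antibody and 799 and 1028 for MEKi. A call in one arm and not in the other does not show a difference between them, which is what the interaction tests. Across the 18193 genes the antibody effect without MEKi and that with MEKi had a Pearson r of 0.555 and SDs of 0.28 and 0.467. The 2 effects share no tumor, although all arrays were normalized together and genes are not independent replicates. The r was 0.936 over the 14 T cell genes and 0.958 over the 13 pan-leukocyte genes, and −0.167 over the 29 DNA replication genes. A high r does not mean effects of equal size, as the pan-leukocyte effects had SDs of 0.472 without MEKi and 0.978 with it. The DNA replication effects without MEKi had an SD of 0.095, below the median SE of that contrast, 0.115, so their r says little.

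**Figure D2:**
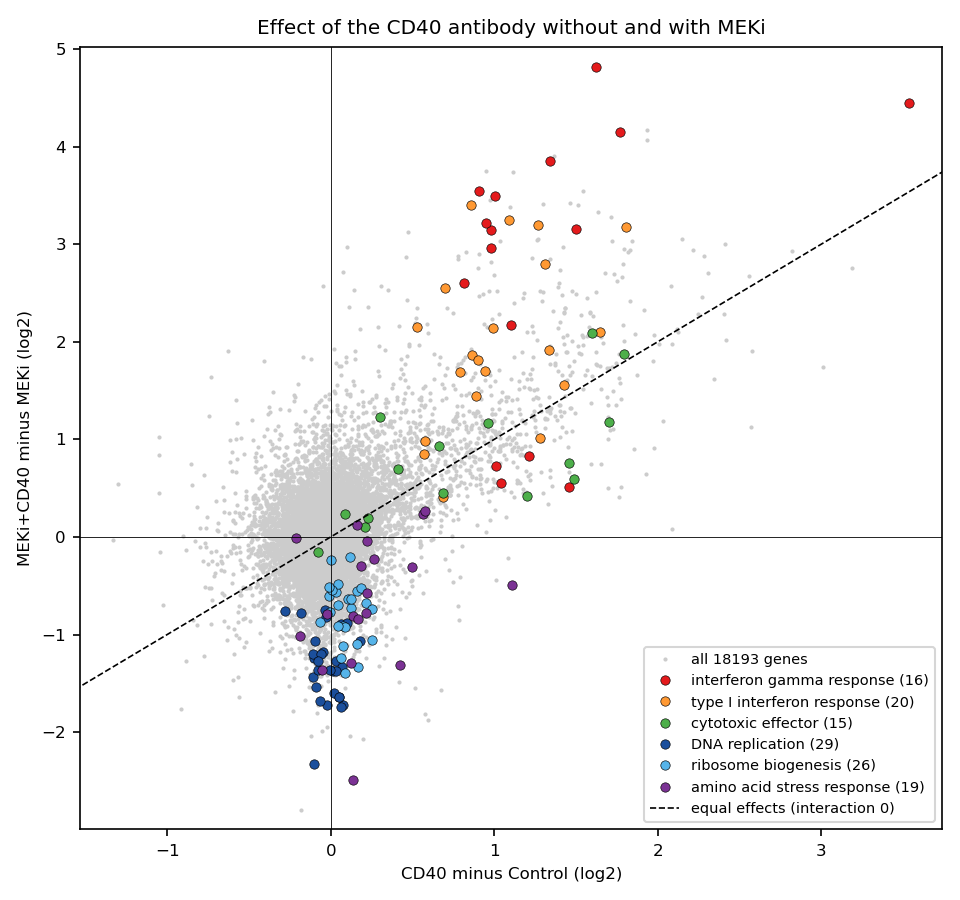
Log2 difference of the CD40 group from control (horizontal axis) against that of the MEKi+CD40 group from MEKi (vertical axis), 1 point per gene, with 6 gene lists in color and their number of genes in the key; the dashed line marks equal effects. Interferon genes mostly lie above the line, cytotoxic genes along it, and DNA replication and ribosome biogenesis genes below it near 0 on the horizontal axis.

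Transcripts of the DNA replication machinery were near control level in either single treatment and lower in the combination. All 29 measured genes had an interaction below 0 at p under 0.05 (background 8.35%), with a median of −1.31 and a range from −2.22 (Cdc6, which loads the MCM helicase on origins) to −0.47 (Gins3), and none passed the adjusted threshold. The median over all genes was 0.03. In the presence of MEKi the antibody lowered all 29 at an adjusted p under 0.05 (8.35% of all genes), with a median of −1.33. Without MEKi the median was −0.03 and none was called. For 26 of the 29 genes all 4 MEKi+CD40 tumors lay below the other 12 (4.42% of all genes). Pola1 is the catalytic subunit of the polymerase that primes DNA synthesis. The log2 signal of Pola1 was 9.32, 8.57, 9.2 and 9.52 in the control tumors, 9.22, 9.25, 9.19 and 9.23 in the CD40 tumors, 9.34, 9.2, 9.09 and 8.7 in the MEKi tumors and 8.19, 8.19, 7.15 and 7.47 in the MEKi+CD40 tumors. The MEKi+CD40 tumors did not overlap any other group, with tumors 3 and 4 the lowest. The interaction of Pola1 was −1.40 ± 0.332 (SE), a 2.64-fold shortfall against the additive value (unadjusted p = 0.000772, adjusted p = 0.101). Orc6, a subunit of the origin recognition complex, had −1.09 ± 0.234 and an adjusted p of 0.0981, Tyms, which makes the thymidine nucleotide, −1.29 ± 0.299, and Gins1, part of the replicative helicase, −1.70 ± 0.418. The list median was −1.19 without the 3 muscle-containing tumors, with 28 of 29 genes at p under 0.05, and −1.40 without MEKi+CD40 tumor 1, with 29. Array weights called 20 of the 29 (515 of all 45037 probe sets below 0). The fit without MEKi+CD40 tumor 2 called 9 (236 of all 18193 genes below 0). The antibody effect on MEKi was called for 22 without the 3 tumors (244 of all 18193 genes lower). In the 8 tumors alone it was called for 2 (281 of all 45037 probe sets lower).

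Mitosis genes had the same direction with smaller values. Of 30 genes 29 lay below 0 and 18 did so at p under 0.05, with a median of −0.74. Bub1b, a spindle checkpoint kinase, had −0.79 ± 0.245, Ttk, another one, −1.13 ± 0.374, and Ndc80, which ties kinetochores to microtubules, −1.02 ± 0.337. In the 4 groups, Mki67 gave log2 signals of 12.1, 11.26, 11.84 and 12.08 (control), 11.86, 11.71, 11.48 and 11.95 (CD40), 12.07, 11.79, 11.98 and 11.11 (MEKi) and 11.02, 11.02, 10.3 and 11.0 (MEKi+CD40). Mki67, the proliferation marker Ki-67, was lower in all MEKi+CD40 tumors than in the other 12, by a narrow distance to MEKi tumor 4 and control tumor 2. Its interaction was −0.83 ± 0.330. MEKi tumor 4 and control tumor 2 were also the lowest of their groups in the mitosis score, at −0.71 and −0.51 relative to the control mean, against −0.64 to −1.59 in the MEKi+CD40 tumors. Without the 3 muscle-containing tumors the median was −0.53 and 7 genes were at p under 0.05.

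The promoters of 25 DNA replication genes were in the RefSeq table (GRCm38.p6, 250 bases before to 50 after each start). Letters known to be bound by E2F factors, TTTCCCGC or TTTGGCGC on either strand, stood in 10 of the 25, against 2.77% of 14452 genes on the array with such a window, and in 0 of 26 mitosis genes. The 2 replication genes with the smallest interaction p among those with a match are shown, with the match in capitals (GCGCCAAA is the second motif on the opposite strand).
Pola1, chrX:93632106-93632405, minus strand: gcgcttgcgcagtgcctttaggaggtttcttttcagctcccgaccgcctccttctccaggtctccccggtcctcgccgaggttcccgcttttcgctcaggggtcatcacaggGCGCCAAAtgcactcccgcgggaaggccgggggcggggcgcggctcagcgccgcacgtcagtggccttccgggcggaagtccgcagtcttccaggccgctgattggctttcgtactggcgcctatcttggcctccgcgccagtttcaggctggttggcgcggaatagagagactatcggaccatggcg
Mcm6, chr1:128359656-128359955, minus strand: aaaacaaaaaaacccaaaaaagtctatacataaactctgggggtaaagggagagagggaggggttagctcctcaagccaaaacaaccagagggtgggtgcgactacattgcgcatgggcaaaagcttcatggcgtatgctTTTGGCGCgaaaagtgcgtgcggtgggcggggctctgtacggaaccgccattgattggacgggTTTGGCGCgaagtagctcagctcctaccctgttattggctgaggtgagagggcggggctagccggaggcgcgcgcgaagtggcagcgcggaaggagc
The match in Pola1 begins 138 bases upstream of the start, and those in Mcm6, a helicase subunit with an interaction of −1.69 ± 0.435, begin 110 and 47 bases upstream. A match is a description of the letters and not evidence of binding.

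Ribosome biogenesis factors, which process and assemble ribosomal RNA in the nucleolus, formed a further group below the additive value. All 26 had an interaction below 0 and 25 of them at p under 0.05, with a median of −0.78. Medians of the antibody effect were 0.08 without MEKi and −0.71 with it, and 0 and 21 genes were called lower, against 0 and 1519 of all 18193 genes. Gar1 read 10.42, 9.84, 10.25 and 10.26 (log2) in tumors 1 to 4 of the control group, 10.34, 10.33, 9.99 and 10.37 in the CD40 group, 10.49, 10.51, 10.15 and 10.2 in the MEKi group and 9.31, 9.51, 8.5 and 9.07 in the MEKi+CD40 group. No MEKi+CD40 tumor overlapped the others. Gar1, a protein of the snoRNPs that guide pseudouridylation, had an interaction of −1.31 ± 0.264 (adjusted p = 0.0971). Nolc1, a nucleolar chaperone of these particles, had −1.50 ± 0.308, and Rrp12, a ribosome export factor, −1.25 ± 0.296. The median was −0.81 without the 3 muscle-containing tumors, where 23 genes were at p under 0.05. The antibody effect on MEKi was called there for 9 (244 of all 18193 genes lower).

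Genes of the amino acid stress response were a further group below the additive value, and none was called in either single treatment. This response runs through the factor ATF4, which induces amino acid transporters, synthesis enzymes and its own feedback inhibitor Trib3. Of 19 genes 18 lay below 0, 12 of them at p under 0.05, with a median of −0.80. The list score was 0.24 ± 0.13 (SD, n = 4) above control in CD40 tumors, 0.26 ± 0.24 above it in MEKi tumors and −0.38 ± 0.13 in MEKi+CD40 tumors. The log2 signal of Trib3 was 10.21, 9.45, 9.97 and 9.39 in the control tumors, 10.57, 10.11, 9.66 and 10.37 in the CD40 tumors, 10.61, 10.12, 9.86 and 10.07 in the MEKi tumors and 8.63, 9.16, 8.43 and 9.18 in the MEKi+CD40 tumors. MEKi+CD40 tumors were the lowest, without overlap, although control tumor 4 lay close to the highest of them. The interaction of Trib3 was −1.74 ± 0.344, a 3.34-fold shortfall (adjusted p = 0.0971). Slc7a11 read 5.85, 4.95, 5.65 and 5.33 (log2) in tumors 1 to 4 of the control group, 6.2, 6.47, 7.02 and 6.52 in the CD40 group, 6.15, 6.03, 5.8 and 5.82 in the MEKi group and 5.56, 5.52, 5.97 and 4.78 in the MEKi+CD40 group. Slc7a11, the cystine transporter, was higher in all 4 CD40 tumors than in the other 12, and the MEKi+CD40 and control groups overlapped. Its interaction was −1.60 ± 0.340, with an antibody difference of 1.11 without MEKi and −0.49 with it, neither of which passed the adjusted threshold. Chac1, which breaks down glutathione, had −1.41 ± 0.306, and Cth, an enzyme of cysteine synthesis, −2.62 ± 0.623, the lowest value of the list. Among the genes with the smallest p outside the list were Tars, the threonyl-tRNA synthetase, at −0.95 ± 0.175, and Cebpg, a partner of ATF4, at −1.07 ± 0.161. The brightest probe set of Cebpg gave −0.58. Without the 3 muscle-containing tumors the list median was −0.86 and 14 genes were at p under 0.05.

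The ATF4 composite site TGATGNAA, read on both strands, stood in 7 of 17 promoter windows of this list, against 3.24% of all. The same rule gave Trib3 and Slc7a11.
Trib3, chr2:152344011-152344310, minus strand: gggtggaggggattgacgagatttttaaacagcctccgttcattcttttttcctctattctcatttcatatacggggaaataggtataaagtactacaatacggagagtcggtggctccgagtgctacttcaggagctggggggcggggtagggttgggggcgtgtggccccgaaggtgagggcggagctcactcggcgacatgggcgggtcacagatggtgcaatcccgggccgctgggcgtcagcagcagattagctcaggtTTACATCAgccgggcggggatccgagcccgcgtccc
Slc7a11, chr3:50443564-50443863, minus strand: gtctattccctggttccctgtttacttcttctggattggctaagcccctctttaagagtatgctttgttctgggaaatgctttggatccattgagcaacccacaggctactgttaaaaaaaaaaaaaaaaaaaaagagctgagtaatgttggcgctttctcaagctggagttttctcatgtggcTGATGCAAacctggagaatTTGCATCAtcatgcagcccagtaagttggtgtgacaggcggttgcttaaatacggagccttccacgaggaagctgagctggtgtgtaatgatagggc
In Trib3 the capitals begin 14 bases after the start, and in Slc7a11 the 2 matches begin 66 and 47 bases before it. The promoter matches say nothing about the binding of ATF4.

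Of 19 ERK target genes 15 lay below 0 and 4 of them at p under 0.05, with a median of −0.54, and 1, Epha4, lay above 0 at that p. MEKi without the antibody did not lower this list. Its median difference from control was 0.16, no gene was called (0 of all 18193 genes), and the score was 0.10 ± 0.14 (SD) relative to control. The score was −0.50 ± 0.54 in MEKi+CD40 tumors. In the 4 groups, Ccnd1 gave log2 signals of 10.72, 10.2, 11.16 and 10.93 (control), 11.11, 11.11, 11.43 and 11.03 (CD40), 11.12, 10.94, 10.94 and 10.96 (MEKi) and 10.22, 10.53, 7.61 and 9.64 (MEKi+CD40). Ccnd1, which encodes cyclin D1, reached far lower in MEKi+CD40 tumor 3 than in the other 3 tumors of that group, 2 of which lay within the control range. Its interaction was −1.91 ± 0.631. Etv5, an Ets factor induced by ERK, had −2.61 ± 0.898 and log2 signals of 7.42, 7.96, 4.29 and 5.91 in the MEKi+CD40 tumors, Myc had −1.33 ± 0.505, and Epha4, an ephrin receptor, had 0.84 ± 0.283, with means below background in all groups but MEKi+CD40. For the feedback inhibitors Dusp6 and Spry4 the intervals included 0, at −1.18 to 0.11 and −2.47 to 0.05. Tumor 3 carried much of the shift, as its list score was −1.25 against 0.04, −0.35 and −0.46 in tumors 1, 2 and 4. Without it the median was −0.27, and without the 3 muscle-containing tumors −0.25.

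**Figure D3:**
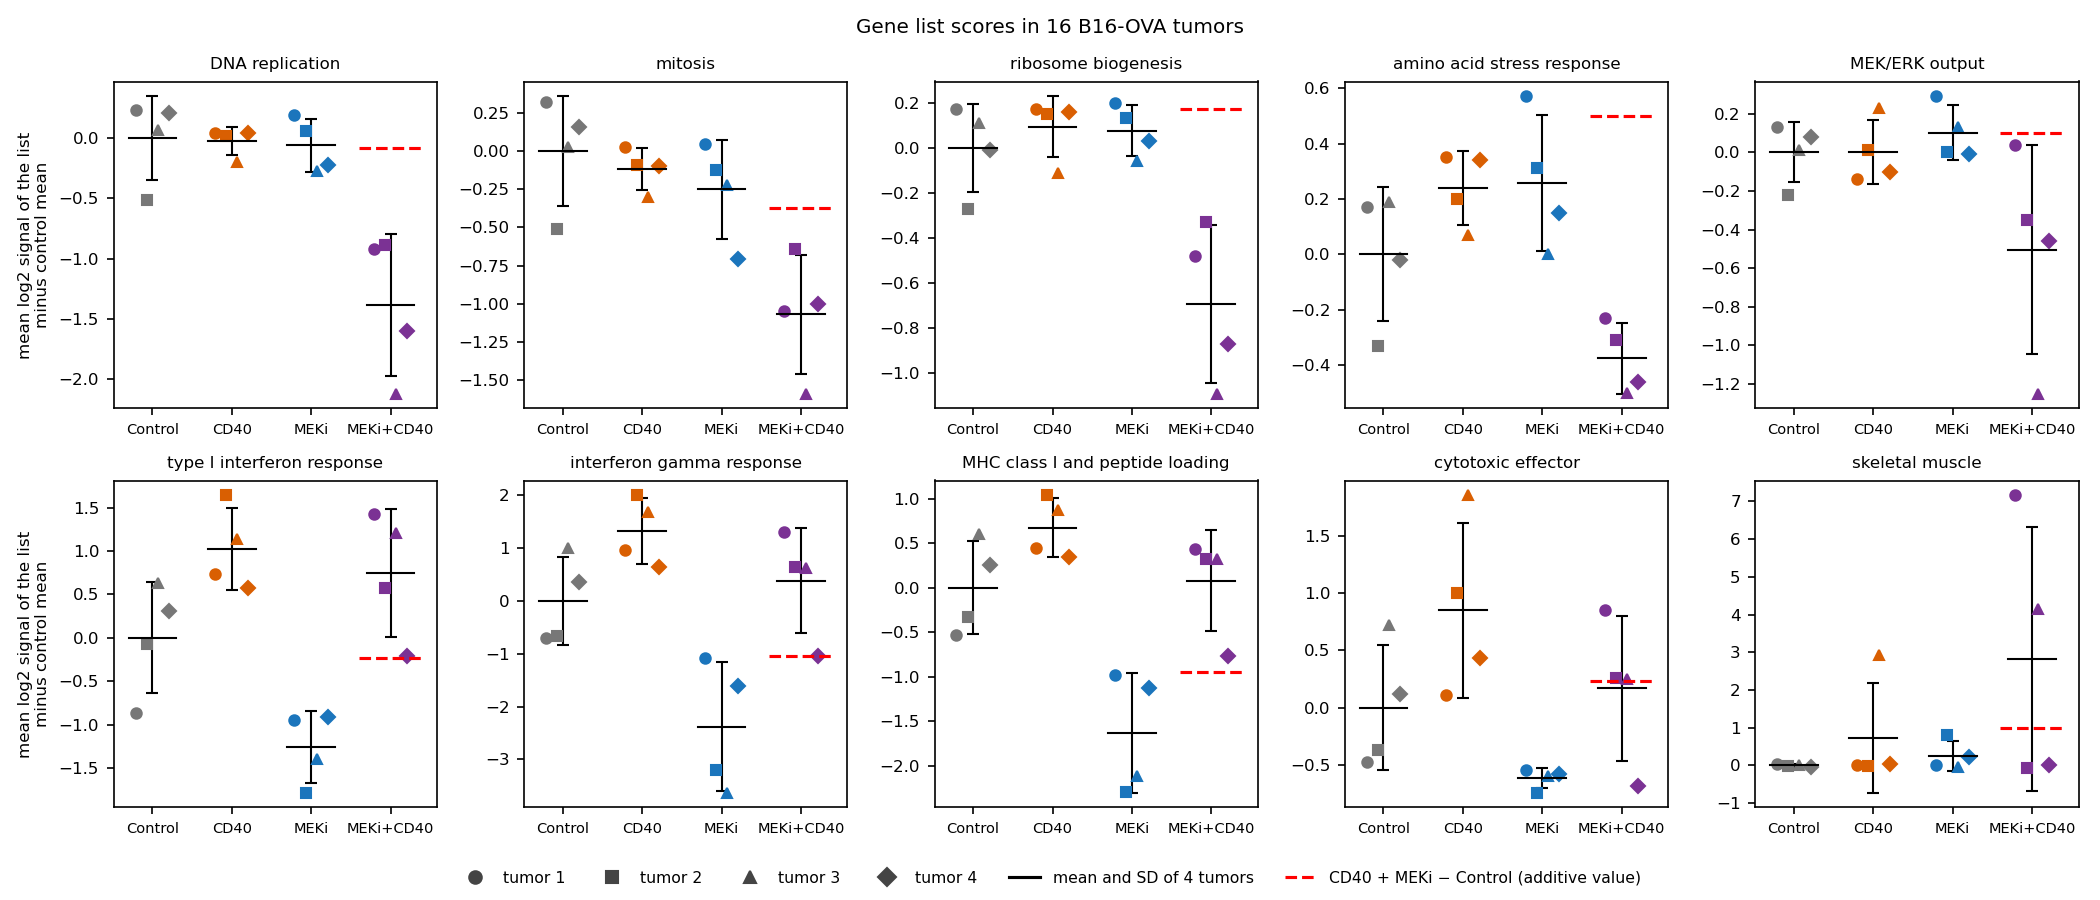
Scores of 10 gene lists by group, 1 point per tumor, as the mean log2 signal of the list relative to that of the control tumors, with a marker shape per tumor number, black bars for the mean and SD of 4 tumors and a red dashed line for the additive value. The MEKi+CD40 mean lies below the additive value in the upper row and above it for the interferon and MHC class I lists, and the cytotoxic effector mean lies close to it.

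Interferon-induced genes showed the opposite sign. Their median level was above control with anti-CD40 Ab and below it with MEKi, differences of which none was called in either single treatment. For 16 interferon gamma response genes the median difference was 1.07 for the antibody without MEKi, −2.76 for MEKi alone and 3.15 for the antibody on MEKi, and the median interaction was 1.88. MEKi+CD40 minus CD40 had a median of −0.87 for these genes, −0.38 for the type I interferon list and −0.66 for the MHC class I list. A value above the additive value is thus not a median level above that with the antibody alone. Of these genes 12 lay above 0, 5 of them at p under 0.05 (background 9.22%), and none passed the adjusted threshold. The antibody raised 12 of the 16 in the presence of MEKi at an adjusted p under 0.05 (5.33% of all genes). Without the 3 muscle-containing tumors it was called higher for 0 of them, while calls higher over all genes fell from 970 to 80. At an unadjusted p of the antibody effect under 0.05, 12 of the 16 were still higher in that limma fit. In the fit of the 8 tumors alone 1 was called. Gbp6, a guanylate-binding protein, had the widest interaction at 3.20 ± 1.322, and Irgm2, Igtp and Iigp1, immunity-related GTPases, had 2.27 ± 0.894, 2.49 ± 1.079 and 2.63 ± 1.131. The type I interferon list gave 18 of 20 above 0, 6 at p under 0.05 and a median of 0.90. The log2 signal of Ifit1 was 7.2, 8.67, 9.47 and 9.39 in the control tumors, 9.2, 10.17, 9.76 and 9.03 in the CD40 tumors, 7.29, 5.9, 5.85 and 7.09 in the MEKi tumors and 10.89, 9.57, 10.88 and 8.4 in the MEKi+CD40 tumors. All 4 MEKi tumors were below the MEKi+CD40 tumors, and the MEKi+CD40 group overlapped the CD40 group. Ifit1, an interferon-induced RNA-binding protein, had an interaction of 2.54 ± 0.835, or 5.84-fold above the additive value (unadjusted p = 0.00829, adjusted p = 0.164). Its MEKi+CD40 mean was 0.395 above the CD40 mean, which was not called. Rsad2, which encodes viperin, had 1.63 ± 0.522, Ifit3 2.16 ± 0.804, and Usp18, a brake on interferon signalling, 1.93 ± 0.709.

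Windows of 9 of 11 interferon gamma genes and 8 of 15 type I genes held the core of the interferon-stimulated response element, GAAANNGAA on either strand, against 8.70% of all. Those of Rsad2 and Ifit1 follow, with the core in capitals as it reads on the opposite strand.
Rsad2, chr12:26456403-26456702, minus strand: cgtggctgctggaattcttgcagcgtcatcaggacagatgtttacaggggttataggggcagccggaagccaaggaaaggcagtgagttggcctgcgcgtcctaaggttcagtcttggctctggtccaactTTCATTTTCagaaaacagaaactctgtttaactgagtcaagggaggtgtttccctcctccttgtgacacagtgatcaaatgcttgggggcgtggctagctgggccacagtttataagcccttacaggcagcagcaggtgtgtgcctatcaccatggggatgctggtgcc
Ifit1, chr19:34640639-34640938, plus strand: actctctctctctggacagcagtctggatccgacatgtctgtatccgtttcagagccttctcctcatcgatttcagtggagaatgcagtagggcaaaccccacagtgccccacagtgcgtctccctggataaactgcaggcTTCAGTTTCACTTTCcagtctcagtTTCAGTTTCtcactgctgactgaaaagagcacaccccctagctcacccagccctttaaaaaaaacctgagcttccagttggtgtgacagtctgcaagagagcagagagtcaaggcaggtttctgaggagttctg
Ifit1 had 3 matches, of which 2 overlap, and Rsad2 had 1.

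MHC class I and peptide loading genes had a median interaction of 1.08, with 12 of 14 above 0 and 5 at p under 0.05. H2-D1 read 12.53, 13.01, 13.41 and 13.1 (log2) in tumors 1 to 4 of the control group, 13.37, 13.54, 13.6 and 13.35 in the CD40 group, 12.27, 10.82, 11.34 and 12.32 in the MEKi group and 13.6, 13.52, 13.71 and 13.0 in the MEKi+CD40 group. H2-D1, a classical class I heavy chain, had its 4 lowest signals in the MEKi group, and the remaining 3 groups overlapped. Its interaction was 1.32 ± 0.406, and that of B2m, the light chain, 1.14 ± 0.412. The B2m means of the control, CD40 and MEKi+CD40 groups (14.065, 14.305 and 14.338) lay near the highest signal of any probe set tested, 14.75. Whether this limit of the range bears on the interaction was not tested. The immunoproteasome subunits Psmb8 and Psmb9 had 2.28 ± 1.023 and 2.47 ± 1.015. In the 4 groups, Psmb8 gave log2 signals of 10.32, 10.68, 11.98 and 11.84 (control), 12.05, 12.63, 12.5 and 12.03 (CD40), 9.2, 5.81, 6.87 and 8.07 (MEKi) and 11.69, 11.54, 11.58 and 8.66 (MEKi+CD40). MEKi+CD40 tumor 4 lay within the MEKi range for Psmb8, while tumors 1 to 3 lay within the control range and below all CD40 tumors. MHC class II genes had a median of 1.44 but 0 of 8 at p under 0.05 (3 without MEKi+CD40 tumor 4), as with H2-Ab1 (95% interval −1.14 to 3.76) and Cd74 (−0.51 to 4.29). The interval for Cxcl9, a chemokine for T cells, was −0.16 to 4.93, and for Cd274, the ligand PD-L1, −0.32 to 2.75.

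The interferon counts moved in both directions when MEKi+CD40 tumors were left out. Without tumor 4, the lowest of its group in these lists, 11 interferon gamma, 12 type I, 9 MHC class I and 3 MHC class II genes lay above 0 at p under 0.05, and none passed the adjusted threshold. Without MEKi+CD40 tumor 1 the interferon gamma median was 1.60 with 1 gene on each side of 0 at p under 0.05, and without the 3 muscle-containing tumors it was 1.51 with 0 above and 1 below. For the type I list the medians were 0.66 and 0.45, with 5 and 0 genes above 0, and for MHC class I 0.98 and 0.84, with 3 and 1. Without the 3 tumors the antibody effect on MEKi was called for 0 genes of the type I, MHC class I and MHC class II lists, against 17, 11 and 5 with all tumors. Calls higher over all genes fell from 970 to 80. At an unadjusted p of the antibody effect under 0.05, 15, 11 and 4 genes of these lists were higher, against 19, 12 and 6 with all tumors. Leukocyte transcripts moved with the same tumors. The macrophage list (12 of 14 above 0, none at p under 0.05) had a median interaction of 0.75, and 0.13 without tumor 1. The pan-leukocyte list (11 of 13 above 0) had 0.53, and −0.01 without tumor 1. The macrophage score ran from −1.20 to 1.00 in control, 0.56 to 2.74 in CD40, −2.61 to −0.08 in MEKi and −1.31 to 2.18 in MEKi+CD40 tumors, with MEKi+CD40 tumor 4 at the low end, as in the interferon lists. The part of these cells in the interferon values was not tested.

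Lists of T cell and effector genes had medians near 0, with members on both sides. The median interaction was 0.01 for 14 T cell genes, −0.04 for 15 cytotoxic effector genes, 0.05 for 10 checkpoint genes, 0.04 for 20 chemokines and less than 0.01 from 0 for 15 genes of the CD40 and NF-kB list, with 0 genes at p under 0.05 in any of these. Single members ranged from −0.26 to 0.55 for T cell, −0.89 to 0.93 for cytotoxic, −0.57 to 1.22 for checkpoint and −2.0 to 1.11 for chemokine genes. The mean log2 signal in control tumors was 5.56 for the T cell and 5.37 for the cytotoxic list, near the background of 4.95. In MEKi tumors the scores were −0.31 ± 0.03 and −0.62 ± 0.09 (SD) relative to control. Falls toward background are not well measured, so a median near 0 in these 2 lists does not show that the treatments added up. The antibody effect on cytotoxic genes had a median of 0.69 without MEKi and 0.70 with it, and on chemokines 1.09 and 1.08. The highest scores of these groups were in muscle-containing tumors. CD40 tumor 3 had 1.85 (cytotoxic) and 2.32 (chemokines), and MEKi+CD40 tumor 1 had 0.85 and 2.23. Without the 3 such tumors, 1 cytotoxic gene and 1 chemokine were higher at an unadjusted limma p of the antibody effect on MEKi under 0.05. With all tumors these were 3 and 4. Over all genes the count fell from 2504 to 1634. The log2 signal of Gzmb was 5.93, 6.05, 8.87 and 7.22 in the control tumors, 7.29, 9.49, 10.06 and 8.4 in the CD40 tumors, 5.17, 4.91, 5.47 and 5.14 in the MEKi tumors and 7.76, 7.92, 7.26 and 5.25 in the MEKi+CD40 tumors. Gzmb, the killer protease granzyme B, was low in all MEKi tumors and in MEKi+CD40 tumor 4, and the other groups overlapped. Its interaction was 0.08, with an interval from −2.07 to 2.23, which is wide and leaves room for a departure in either direction. The intervals were also wide, at −2.42 to 1.39 for Ifng (MEKi mean below background), −2.14 to 0.49 for Cd40 and −2.46 to 3.51 for Mrc1, a macrophage mannose receptor.

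The 20 genes with the smallest p-values, 10 in each direction, all lay outside the lists. Among those above 0, Smpd2, a sphingomyelinase, had the smallest p. In the 4 groups, Smpd2 gave log2 signals of 9.76, 10.19, 10.08 and 9.93 (control), 9.71, 9.42, 9.47 and 9.57 (CD40), 9.48, 9.58, 9.3 and 9.66 (MEKi) and 9.9, 10.19, 10.43 and 10.3 (MEKi+CD40). The values in the CD40 and in the MEKi tumors were all below those of the control tumors, and the MEKi+CD40 tumors overlapped the control range. The interaction was 1.15 ± 0.174, or 2.21-fold (unadjusted p = 9.2e-06, adjusted p = 0.0971). Lpin1, a phosphatidate phosphatase, at 0.87 ± 0.154, and Noxo1, an NADPH oxidase organizer, at 1.02 ± 0.185, also had lower means in both single treatments than in control, and the MEKi+CD40 mean was above control for Noxo1 and below it for Lpin1. Pdk2 read 4.83, 5.18, 5.07 and 4.67 (log2) in tumors 1 to 4 of the control group, 4.89, 4.38, 4.92 and 4.77 in the CD40 group, 4.53, 4.7, 4.51 and 4.88 in the MEKi group and 6.54, 5.55, 6.72 and 6.09 in the MEKi+CD40 group. Pdk2, which holds back pyruvate dehydrogenase, was near background in 12 tumors and higher in all 4 MEKi+CD40 tumors, and its interaction was 1.77 ± 0.299. The means of the other 3 groups and the additive value lay below the background level of 4.95, so no fold is given. Vamp5, Glb1l, Irgq, Mgst3, Fxyd1 and Ppp2r5b shared this pattern of all 4 MEKi+CD40 tumors above the other 12, with interactions from 0.67 (Glb1l, whose additive value lay below background) to 1.28 (Vamp5). Below 0 stood Cebpg, Hells, Igf2bp1, Ackr4, Steap1, Tbl1xr1, Adcy7, Dtl, Dus4l and Tars, from −0.59 (Tbl1xr1) to −2.06 (Dus4l). The MEKi+CD40 means of Dus4l, Hells and Dtl lay below background, so the sizes of these 3 interactions are not well measured. Except for Dus4l, all of these had the 4 MEKi+CD40 tumors below the other 12. The log2 signal of Hells was 5.84, 5.6, 5.57 and 6.06 in the control tumors, 5.86, 6.24, 5.74 and 6.06 in the CD40 tumors, 6.1, 5.7, 5.78 and 5.81 in the MEKi tumors and 3.77, 4.81, 4.24 and 4.45 in the MEKi+CD40 tumors. Hells, a helicase of DNA methylation and replication, had an interaction of −1.74 ± 0.264, and its brightest probe set gave −1.73. Tbl1xr1 had a value of only −0.26 (unadjusted p = 0.0910) on its brightest probe set. Brightest probe sets gave 0.842 for Vamp5, −0.583 for Cebpg, −0.91 for Ackr4, −1.445 for Steap1, −0.88 for Adcy7 and −1.642 for Dtl. This was checked for 70 genes, and no other probe set of these had the opposite sign at an unadjusted p under 0.05. Cdc6, Gins3, Mcm6, Oca2, Mt1, Ikzf2 and the heat shock genes named below were not among them.

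**Figure D4:**
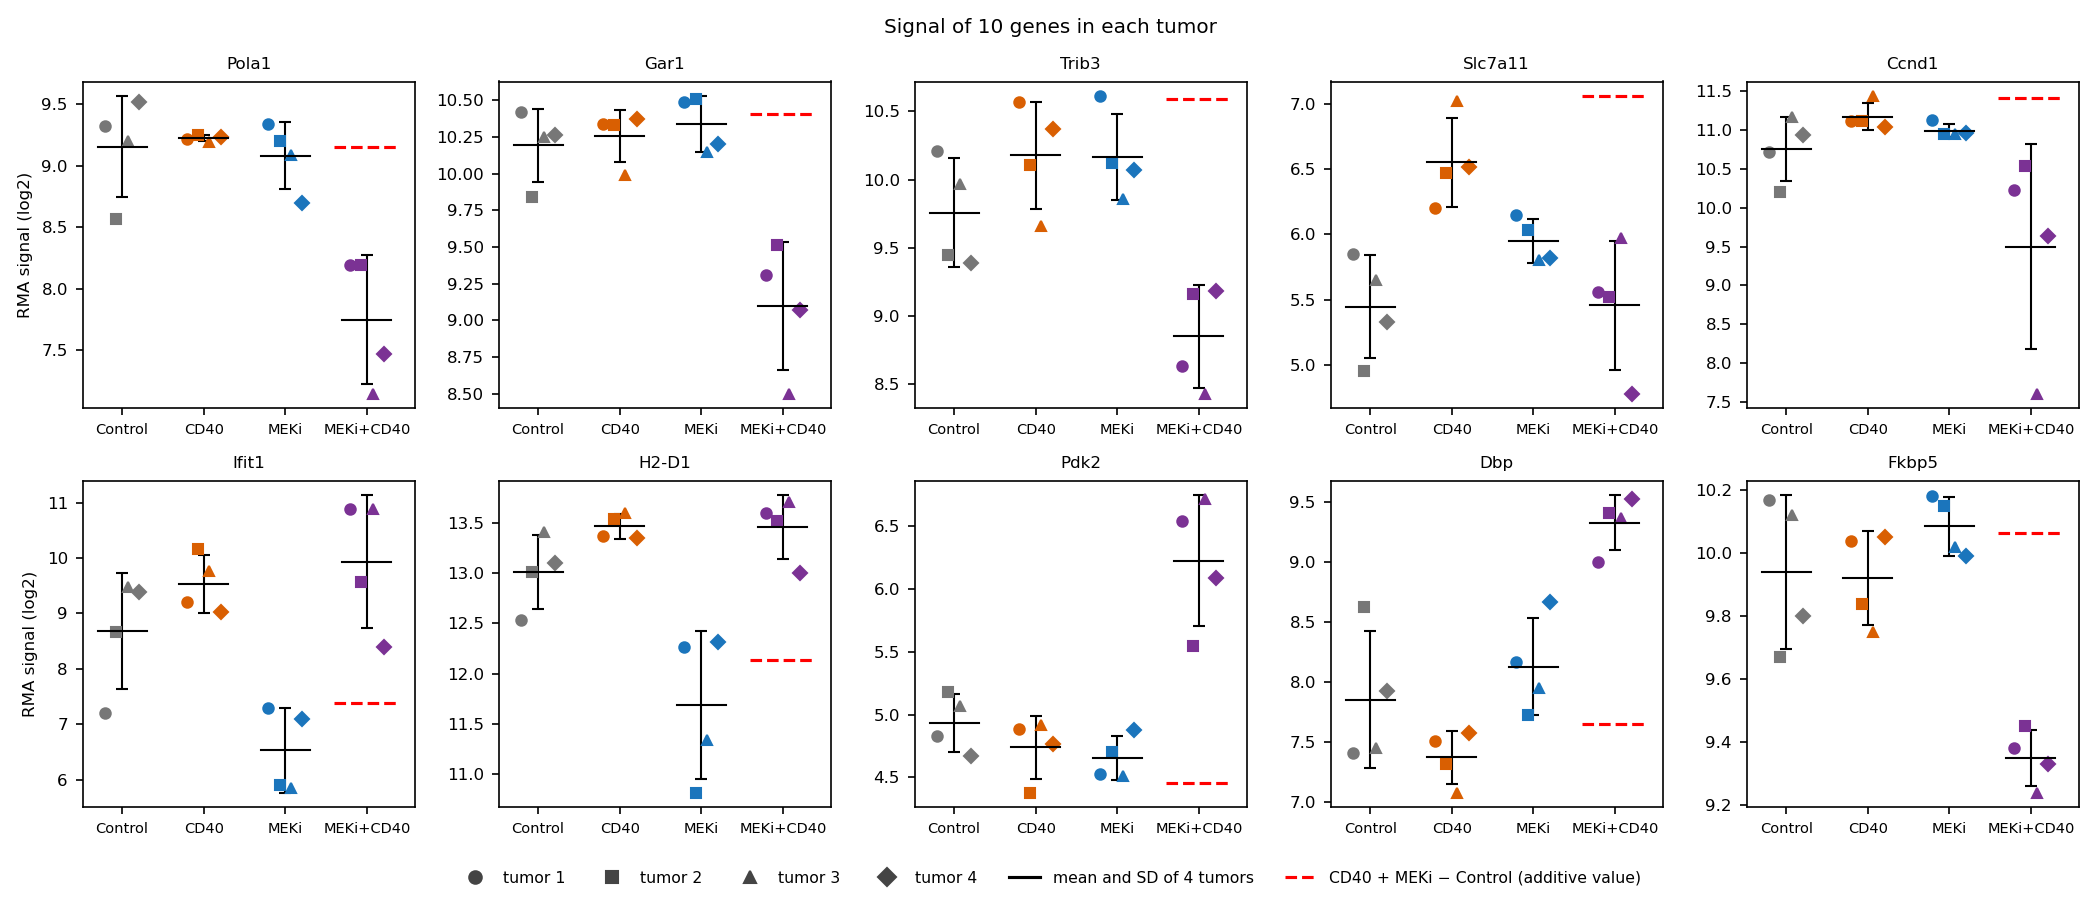
RMA signal (log2) of 10 genes in each of the 16 tumors by group, with a marker shape per tumor number, black bars for the mean and SD of 4 tumors and a red dashed line for the additive value. MEKi+CD40 tumors do not overlap the others for Pola1, Gar1, Trib3, Pdk2, Dbp and Fkbp5, and overlap some of them for Slc7a11, Ccnd1, Ifit1 and H2-D1.

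Some stress and clock genes also had small unadjusted p-values. Of 13 p53 targets 10 lay above 0, 5 of them at p under 0.05, and 1 lay below 0 at that p, with a median of 0.66. Phlda3, which restrains Akt, had 1.30 ± 0.319, Sesn1, an inhibitor of mTORC1, 0.84 ± 0.202, and Zmat3, an RNA-binding protein, 0.66 ± 0.196. The median was 0.25 without MEKi+CD40 tumor 1, 0.29 without tumor 3 and 0.26 without the 3 muscle-containing tumors, with 5 genes above 0 at p under 0.05 in the first and last of these fits and 4 in the second. Of 17 clock output genes 5 lay above and 2 below 0 at p under 0.05. Dbp read 7.41, 8.63, 7.45 and 7.93 (log2) in tumors 1 to 4 of the control group, 7.51, 7.32, 7.08 and 7.58 in the CD40 group, 8.17, 7.73, 7.95 and 8.67 in the MEKi group and 9.0, 9.41, 9.37 and 9.53 in the MEKi+CD40 group. Dbp, a clock-driven factor, was higher in all MEKi+CD40 tumors than in the other 12, and its interaction was 1.68 ± 0.352 (adjusted p = 0.0971). Its relatives and co-regulated genes Nr1d1 and Tef had 0.81 ± 0.229 and 0.89 ± 0.270. In the 4 groups, Fkbp5 gave log2 signals of 10.17, 9.67, 10.12 and 9.8 (control), 10.04, 9.84, 9.75 and 10.05 (CD40), 10.18, 10.15, 10.02 and 9.99 (MEKi) and 9.38, 9.45, 9.24 and 9.33 (MEKi+CD40). Fkbp5, a co-chaperone of the glucocorticoid receptor, was lower in all MEKi+CD40 tumors, with an interaction of −0.71 ± 0.156 (adjusted p = 0.0982). It was the 1 gene of 12 in the glucocorticoid list below 0 at p under 0.05, and Mt1 the 1 above.

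Transcripts of other tissues did not pass the adjusted threshold, as no probe set did. All 16 muscle genes lay above 0 with a median of 1.76 and none at p under 0.05, and the median was −0.28 without the 3 tumors in which they were abundant. Endothelial genes had a median of 0.66 (12 of 14 above 0), 0.15 without MEKi+CD40 tumor 1. Fibroblast and matrix genes had 0.21 (18 of 20 above 0), with a range of −0.55 to 0.87 over the fits that left out 1 tumor. Of 10 adipocyte genes 8 lay above 0, 2 of them at p under 0.05 (background 9.22%), with a median of 0.35. Without the 3 muscle-containing tumors 1 adipocyte gene lay above 0 at that p. For melanocyte genes the median was 0.09, with 1 of 15 at p under 0.05, Oca2, a melanosome channel, at 0.96 ± 0.327. The medians of the DNA replication, ribosome biogenesis, amino acid stress and interferon gamma lists stayed at least 0.65 from 0 and on the same side when any 1 tumor was left out.

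**Figure D5:**
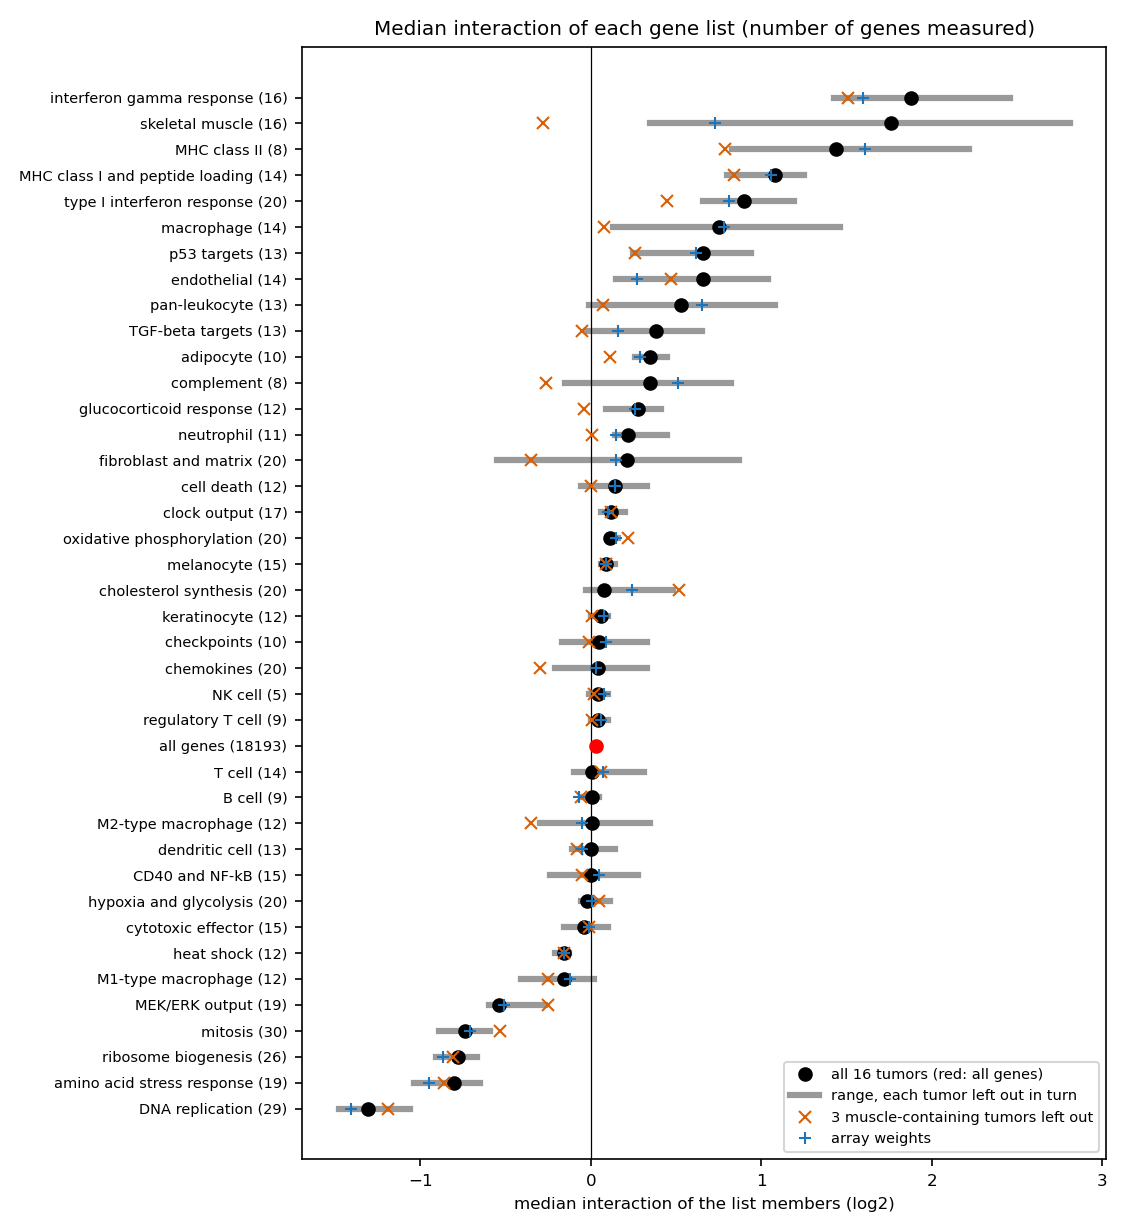
Median interaction of each gene list (black) and of all 18193 genes (red), with the range over 16 fits that each left out 1 tumor (grey), the value without the 3 muscle-containing tumors (orange cross) and that with array weights (blue plus). DNA replication (−1.31), amino acid stress (−0.80) and ribosome biogenesis (−0.78) lie to the left under all of these, and the muscle list changes side without the 3 tumors.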

How the data were processed

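Each of the 16 B16-OVA tumors was measured on 1 array, and the sample labels gave its group (4 groups, 4 tumors each). Per the methods, 200 ng of total RNA from each tumor piece was labelled with the 3′ IVT Plus kit and hybridized to Affymetrix mouse arrays. The authors deposited log2 values made by robust multichip averaging (RMA) in Chipster. These log2 values were used as deposited.

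After 64 Affymetrix control probe sets were left out, 45037 entered the test. A single gene symbol was attached to 34945 of them, several symbols to 932 and none to 9160. For 1 value per gene the brightest probe set was taken, which gave 18193 genes. The background level, 4.95, was the 95th percentile of 43 olfactory receptor probe sets and lay above 39.9% of all. Group means of the 4 groups were fitted in limma 3.58.1 (R 4.3.3; lmFit, contrasts.fit, eBayes), and p-values were adjusted by Benjamini-Hochberg over all probe sets (threshold 0.05). The scripts were tested on simulated data. Promoters are RefSeq windows of GRCm38.p6.

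The 39 lists hold 637 genes, of which 585 were measured. The members and lists were chosen with earlier results of these data known, so lists are described by counts and medians only. Genes named are the 10 per direction with the smallest unadjusted p above background, up to 3 members per list by p on the brightest probe set, and markers such as Gzmb, Ifng, Mrc1, Mki67, Dusp6, Spry4, Cd40, Tyrp1, Cd274, Psmb8, Cxcl9 and H2-Ab1. Cdc6, Gins3, Mcm6, Cth, Tyms, Gins1, Rrp12, Usp18, Ifit3, Igtp, Epha4, Oca2, Mt1 and other list members outside that rule were named after their values were seen. Alternatives were a replicate block, a low-signal filter, 1 probe set per gene, a gene's probe sets averaged, array weights, a trended robust eBayes, cyclic loess, centring on the median, each tumor left out, the 3 tumors with muscle transcripts left out, a muscle score as covariate, and fits on 8 tumors. The labels tie each array to a separate tumor, and the number of arrays limits the precision.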

Additional observations from a re-analysis of the deposited data

Results flagged for a closer look

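Of 336 groups of 4 tumors examined, for 70 genes and 14 list scores, 22 had a highest or lowest tumor whose gap to the nearest other tumor took up more of the group's range than Dixon's 95% critical value. Among independent groups, chance would flag about 1 in 20. The groups here were read in the same tumors, and list scores include flagged genes such as Psmb8 and Psmb9. They are thus not independent, and the count of 22 cannot be judged against that rate. In MEKi+CD40 tumor 4 the log2 signals of Psmb8 (8.66), Psmb9 (9.17) and Cd74 (9.21) were far below the next tumor of the group (11.54, 11.32 and 11.99), as were the list scores relative to the control mean of MHC class I and peptide loading (−0.77, next 0.32) and MHC class II (−1.12, next 0.88). In MEKi+CD40 tumor 3, Mki67 (10.3), Myc (6.88) and Spry4 (4.15) were low and Noxo1 (7.35) was high. Control tumor 2 was low in Gins1 (8.47), Ttk (7.72) and Rrp12 (6.94). CD40 tumor 3 was high in the skeletal muscle (2.92) and endothelial (0.88) scores and low in the DNA replication (−0.20) and ribosome biogenesis (−0.11) scores and in Gar1 (9.99) and Tars (10.72). CD40 tumor 4 was high in Lpin1 (8.37) and Ackr4 (7.83), MEKi tumor 1 in Ccnd1 (11.12) and MEKi tumor 2 in Steap1 (7.17). These are values only, and no cause was tested.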

How the results depend on the processing

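The interaction gave 0 called probe sets in limma with all tumors, with the replicate block (unadjusted p under 0.05 in 2858 above and 3283 below 0), the low-signal filter, trended robust eBayes, median centring, cyclic loess and 1 probe set per gene. Averaging the probe sets of a gene changed no call and no sign among the 70 genes examined. Array weights called 755 (240 above, 515 below), the muscle score as covariate 1 (below 0), and leaving out 1 tumor 0 to 560 (0 to 137 above, 0 to 423 below). The deviations of same-numbered tumors had a median r of −0.07 to 0.14, with single pairs from −0.517 to 0.473. For number 3 all pairs were positive, from 0.024 to 0.473. The numbers were used as names only, and whether they mark a shared processing step was not tested. For the single contrasts, leaving out the 3 muscle-containing tumors gave 2 (CD40 without MEKi), 547 (CD40 with MEKi), 2 (MEKi without CD40) and 1827 (MEKi with CD40), the covariate 1411 (CD40 with MEKi) and 1 (MEKi without CD40), and fits on 8 tumors 518 and 2133 with the other agent present. Of 1812 gene values under the alternatives 14 changed sign, for 3 genes near 0. Gzmb was −0.30 with the covariate and −0.54 to 0.68 without 1 tumor, Mrc1 −0.31 and −0.41 to 1.32, and Tyrp1 0.03 with cyclic loess, 0.0 without the 3 tumors, 0.01 with the covariate and −0.05 to 0.02 without 1 tumor. A further 74 passed the adjusted threshold. The causes were not tested. Probe sets below background carry little signal, and 4 tumors per group limit the precision.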

Other observations

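For 20 cholesterol synthesis genes the median antibody difference was −0.65 without MEKi (none called) and −0.41 with it (2 called lower, against 8.35% of all genes). The median interaction was 0.08. Hmgcs1, an early enzyme of the pathway, had log2 signals of 11.60, 11.88, 11.56 and 11.72 in the control tumors, 11.21, 11.04, 10.83 and 10.87 in the CD40 tumors, 11.55, 11.77, 11.14 and 11.56 in the MEKi tumors and 10.94, 11.60, 11.26 and 11.63 in the MEKi+CD40 tumors. The CD40 tumors lay below the control tumors without overlap, while the MEKi and MEKi+CD40 tumors overlapped. Its interaction was 0.55 ± 0.225 (SE, unadjusted p = 0.0263, adjusted p = 0.263). The list median was 0.48 without MEKi+CD40 tumor 1, the tumor with the wide 3′ to 5′ gap, and 0.52 without the 3 muscle-containing tumors.

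Among 12 heat shock genes, 3 lay below 0 at an unadjusted p under 0.05, namely Hspd1 (−0.58 ± 0.194), Hsph1 (−0.68 ± 0.298) and Hsp90aa1 (−0.46 ± 0.213), and 1 above 0, Dnajb1 (0.25 ± 0.115). For these first 3 genes all 4 MEKi+CD40 tumors lay below the other 12, as for 4.42% of all genes. Of 20 oxidative phosphorylation genes 16 lay above 0, 4 of them at an unadjusted p under 0.05, and the median was small at 0.11, or 0.22 without the 3 muscle-containing tumors. Among the regulatory T cell genes the lineage factor Foxp3 was below background in all 4 group means, while Ikzf2, which encodes Helios, had 0.67 ± 0.193. None of these values passed the adjusted threshold.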
